A study of Mus musculus with 8 samples.

Results

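The 9 genes described here are regulators of the eye field and of early retinal progenitors: Rax, Six3, Six6, Pax6, Lhx2, Otx2, Sox2, Mab21l1 and Mab21l2. They were chosen by name, as the rows whose gene name equals one of these symbols, out of 35494 loci in the 1 h table and 35541 loci in each of the 8 and 24 h tables. This gave 11 rows at 1 h and 10 at 8 and 24 h, because Six3 and Sox2 each name a second row. The row with the higher level at 0 h was taken as the gene, and the second rows are described with Six3 and Sox2. Messenger RNA was sequenced from mouse retinal organoids at day 6 of differentiation. In all 8 samples, untreated ones included, the cells carried the reporter Rx:GFP and had the tag FKBP12F36V-HA at the C-terminus of METTL3, knocked into both alleles. FKBP12F36V is a degron, and the compound dTAG-13 brings a protein that carries it to a ubiquitin ligase. The organoids were grown with 5% KSR and 0.1 µM of a compound labelled AGN, and were left untreated (0 h) or given 125 nM dTAG-13 for 1, 8 or 24 h, with 2 replicates in each of the 4 groups. The labels do not say whether the cells are a single clone, whether the untreated samples received solvent, or how the reporter altered the Rax gene, for which Rx is an older name.

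The eye field is the patch of the anterior neural plate from which both eyes form, and it is marked by a set of transcription factors that act on one another's genes. Rax, Six3, Six6, Pax6, Lhx2 and Otx2 encode homeodomain proteins, and Sox2 encodes an HMG-box protein of neural progenitors and pluripotent cells. Mab21l1 and Mab21l2 are needed for eye development as well, but their products resemble nucleotidyltransferases, so the name transcription factor fits the first 7 genes better than this pair. METTL3 is the catalytic subunit of the complex that places N6-methyladenosine (m6A) on messenger RNA, a mark that often shortens the life of a transcript. Within a transcript the mark is found mainly away from exon junctions, in long internal exons and in last exons.

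The deposited values are FPKM (fragments scaled to transcript length and to library size) with the bounds of an interval, and estimated counts with a variance. Each condition has a single value combined over both replicates, so no spread between replicates and no p-value can be given. In its place each FPKM is given with its deposited interval, whose level is not stated, and each log2 ratio with a standard error (SE) computed from the deposited variances, which reflect the authors' model. The estimated counts of a condition summed to between 31361518 and 32562075, and the median coefficient of variation over the tested loci at 0 h was 10.9% to 11.8%. A locus was tested when it reached 1 FPKM in either condition, and was called when 2 conditions were met: intervals apart from each other, and a ratio of 1.5-fold or more after 0.1 FPKM was added on each side. All 3 comparisons use the same 0 h libraries, so their ratios are not independent of one another. Ratios were formed within a table, because the tables were normalized separately. Mettl3 had 19.4 FPKM (10.7 to 28.1) at 0 h and 19.4 (10.8 to 28.0) at 8 h. This does not test the depletion, since the degron acts on the protein.

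All 9 regulators were well expressed before treatment. In the 0 h column of the 8 h table the order from high to low was Lhx2, Pax6, Otx2, Sox2, Mab21l1, Six6, Rax, Six3 and Mab21l2. The upper 4 genes lay between 107 FPKM (Sox2, 85.8 to 129) and 142 FPKM (Lhx2, 114 to 171), and the lower 5 between 29.98 FPKM (Mab21l2, 20.02 to 39.9) and 56.0 FPKM (Mab21l1, 42.0 to 70.0). The only neighbours in this order with separate intervals were Sox2 and Mab21l1, so the order within the upper and within the lower group is not resolved. The place of all 9 genes was the same in the 0 h columns of the 1 h and 24 h tables. Of the tested loci, 95.4% had a lower FPKM at 0 h than Lhx2 and 73.8% a lower one than Mab21l2. The estimated counts of the 9 genes ranged from 1930 to 13937, so none of their values lies near the limit of detection.

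Treated levels were above the untreated ones for all 9 regulators at 8 and 24 h, but most of the differences stayed within the intervals. At 1 h none of the 9 was called, where 0.402% of all tested loci were called, 0.117% higher and 0.285% lower. At 8 h Mab21l1 alone was called, higher, where 4.43% of all tested loci were called, 3.49% higher and 0.94% lower. At 24 h Rax, Lhx2 and Mab21l1 were called higher, where 5.48% of all tested loci were called, 3.83% higher and 1.65% lower. With estimated counts in place of FPKM, 0, 0 and 2 members were called higher, beside 0.0146%, 3.84% and 4.21% of all tested loci. The median log2 ratio over the 9 genes at 1, 8 and 24 h was 0.10, 0.43 and 0.46, while over all tested loci it was 0.01, 0.01 and 0.02. At 1 h 6 of the 9 ratios were above 0, and at 8 and 24 h all 9 were, against 51.3% and 52.1% of all tested loci. The genes are a small set chosen by name with results of these data known, so these counts are descriptions.

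**Figure D1:**
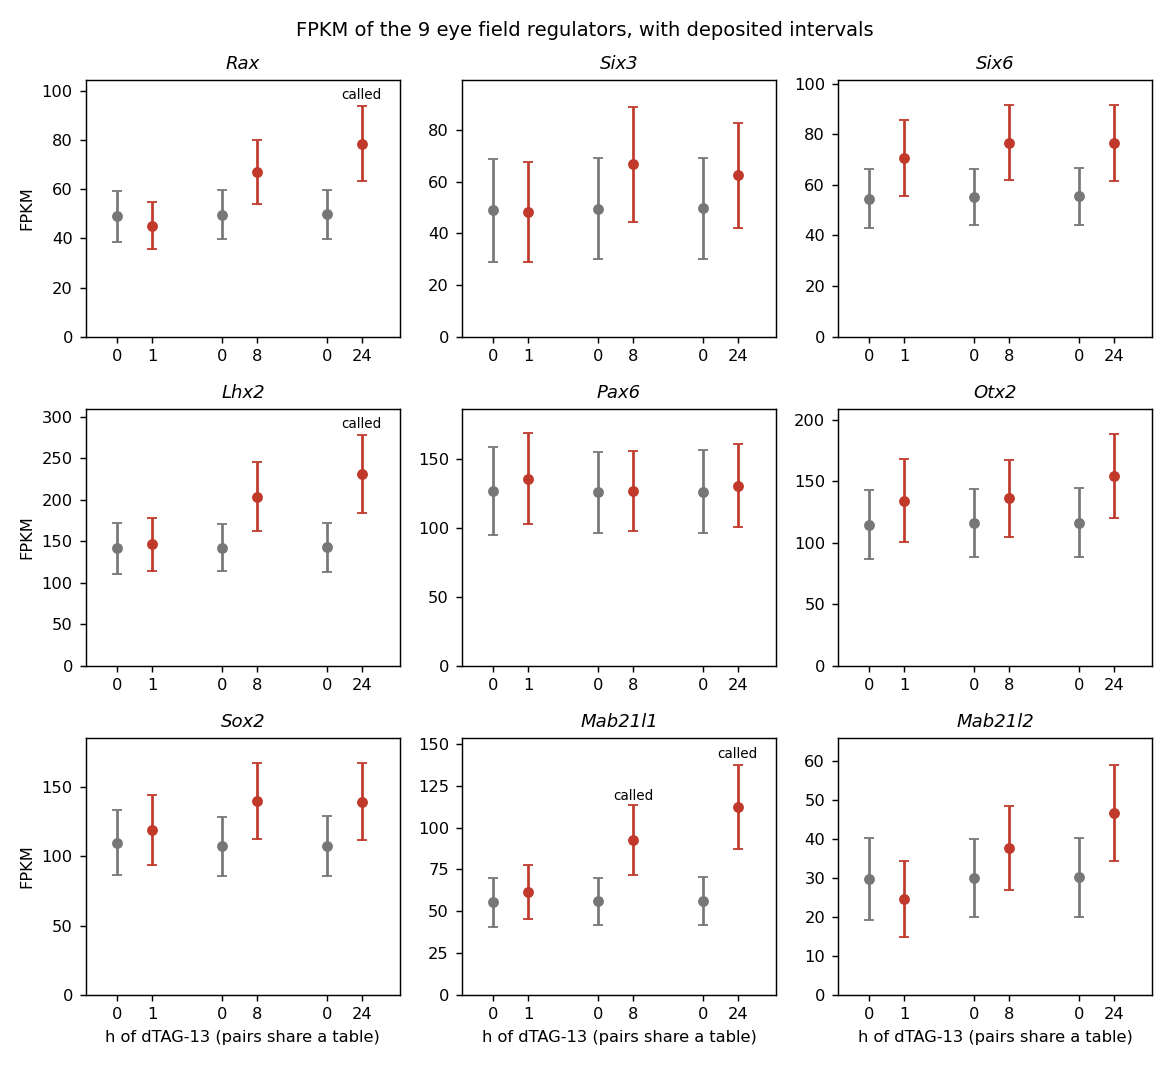
FPKM of each of the 9 genes (vertical axis) at 0 h (grey) and after 1, 8 or 24 h of dTAG-13 (red), in pairs that share a table. Bars are the deposited intervals; the word called marks the 4 pairs in which the interval rule was met, Mab21l1 at 8 h and Rax, Lhx2 and Mab21l1 at 24 h.

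**Figure D2:**
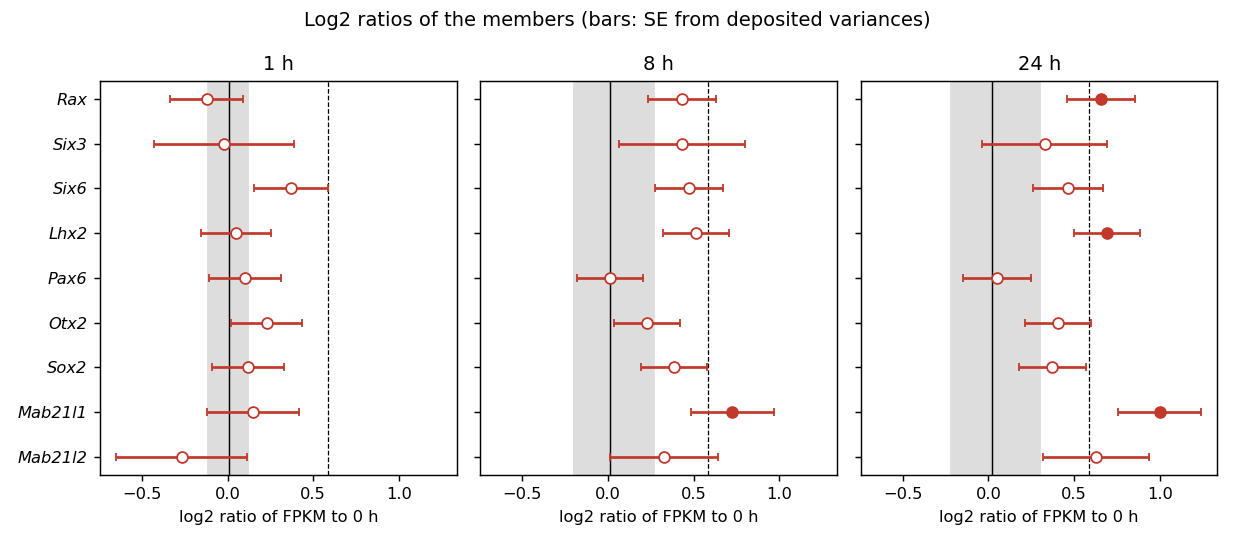
Log2 ratio of FPKM to 0 h for each gene, with SE bars from the deposited variances. Filled points are called, the grey band holds the middle 50% of all tested loci, the solid line is their median and the dashed line marks 1.5-fold; Pax6 is inside the band at 8 and 24 h, and Otx2 at 8 h.

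Rax is the homeobox gene without which eyes do not form, and here it is also the gene of the reporter. Its GRCm38 position is chromosome 18, 65928277 to 65939787, minus strand. At 1 h its FPKM was 45.1 (35.6 to 54.7), against 49.1 (38.7 to 59.5) untreated. In the 8 h table it went from 49.7 (39.9 to 59.5) to 67.1 (54.2 to 80.0), and in the 24 h table from 49.9 (39.9 to 59.9) to 78.6 (63.3 to 94.0). The level was thus slightly lower at 1 h, higher at 8 h with overlapping intervals, and above the 0 h interval at 24 h. The log2 ratios were -0.12 ± 0.21, 0.43 ± 0.20 and 0.66 ± 0.20 (SE). The rise at 24 h was 1.57-fold, close to the threshold. In estimated counts it went from 2430 to 3720, a log2 ratio of 0.61, and the intervals built from the count variances overlapped, so the call rests on FPKM. An antisense gene, Raxos1, shares 27.4% of the annotated exon bases of Rax, but its row held 0.144 FPKM at 0 h and 0.185 after 24 h.

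Six3 and Six6 are homeobox genes of a single family. Six3 holds back Wnt signalling in the anterior neural plate, and Six6 keeps retinal progenitors dividing. Six3 (chromosome 17, plus strand, 85613608 to 85629302) had 48.9 FPKM (28.9 to 68.9) at 0 h and 48.2 (28.9 to 67.5) at 1 h. It went from 49.5 (30.01 to 69.0) to 66.8 (44.4 to 89.1) at 8 h and from 49.7 (30.1 to 69.3) to 62.4 (42.1 to 82.8) at 24 h. The intervals of Six3 were the widest of the 9 genes in relation to its level and overlapped at each time, with log2 ratios of -0.02 ± 0.41, 0.43 ± 0.37 and 0.33 ± 0.36.

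The second row that carries the name Six3 is named Six3 in the 1 h table and Gm28528,Six3 in the others. Loci in these tables are numbered by chromosome and then by strand, and the 20 nearest named loci give the right strand for 98.4% of loci with a known strand in the 8 h table. All 20 around the second row lie on the minus strand, and none of those around the main Six3 row does. The row therefore lies among genes of the strand opposite to Six3, where GENCODE annotates the antisense genes Six3os1 and Gm28528. Its estimated counts, 11932 at 0 h in the 8 h table, exceeded the 4045 of Six3. Its FPKM moved from 40.7 (31.0 to 50.4) to 37.5 (28.6 to 46.5) at 1 h, from 35.8 (27.7 to 43.9) to 32.9 (25.2 to 40.6) at 8 h and from 35.9 (27.7 to 44.2) to 27.5 (20.7 to 34.4) at 24 h. The second row was below its 0 h value at each time, with overlapping intervals, while Six3 was above it at 8 and 24 h. With the estimated counts of both rows summed, the log2 ratio for the name Six3 was 0.04 at 8 h and -0.18 at 24 h, so its sign at 24 h depends on which row is read.

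Six6 (chromosome 12, plus strand, 72939892 to 72944899) had the largest ratio of the 9 genes at 1 h. It went from 54.6 FPKM (43.0 to 66.1) to 70.5 (55.4 to 85.6) at 1 h, from 55.2 (44.3 to 66.2) to 76.7 (61.9 to 91.6) at 8 h and from 55.4 (44.3 to 66.6) to 76.5 (61.6 to 91.5) at 24 h. The treated values were alike in the 3 tables and above 0 h in each, but all intervals overlapped. The log2 ratios were 0.37 ± 0.22, 0.47 ± 0.20 and 0.46 ± 0.20. The row of 4930447C04Rik, which RefSeq also lists as Six6os1, overlaps the Six6 locus from the opposite strand and went from 13.5 FPKM (1.14 to 25.8) to 7.65 (0 to 15.95) after 24 h, a log2 ratio of -0.81 ± 0.80. Its annotated exons share 4.79% of the exon bases of Six6.

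Lhx2 and Pax6 were the genes with the highest levels; Lhx2 was called at 24 h and Pax6 at no time. Lhx2 encodes a LIM-homeodomain protein that the optic vesicle needs in order to form an optic cup. On chromosome 2 (plus strand, 38339281 to 38369733), it had 142 FPKM (111 to 172) at 0 h and 146 (114 to 179) at 1 h. It went from 142 (114 to 171) to 204 (162 to 245) at 8 h and from 143 (113 to 172) to 231 (184 to 278) at 24 h. The 1 h interval covered nearly the same range as that of 0 h, the 8 h intervals overlapped, and the 24 h intervals were 11.2 FPKM apart. The log2 ratios were 0.05 ± 0.21, 0.51 ± 0.19 and 0.69 ± 0.19, and the 24 h change was 1.62-fold. It was also called in estimated counts at 24 h, from 8897 to 13937. In the 8 and 24 h tables no other tested locus overlapped Lhx2.

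Pax6, a paired-box and homeobox gene that acts at many steps of eye development, lies on chromosome 2 (plus strand, 105668900 to 105697364). It had 127 FPKM (94.5 to 159) at 0 h and 136 (102 to 169) at 1 h. At 8 h it went from 126 (96.3 to 155) to 127 (97.3 to 156), and at 24 h from 126 (96.0 to 156) to 131 (100.4 to 161). Its treated and untreated intervals covered almost the same range at 8 and 24 h. The log2 ratios were 0.10 ± 0.21, 0.01 ± 0.19 and 0.05 ± 0.20, the smallest of the 9 genes at both later times. The antisense gene Pax6os1 was at 2.26 FPKM (0 to 7.51) at 0 h and 1.70 (0 to 5.55) at 24 h.

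Otx2 and Sox2 are expressed beyond the eye field, Otx2 across the forebrain and midbrain and in pigment epithelium, and Sox2 across the neural plate. Otx2 (chromosome 14, minus strand, 48657677 to 48673819) went from 114 FPKM (86.4 to 143) to 134 (100.1 to 168) at 1 h, from 116 (88.7 to 143) to 136 (105 to 167) at 8 h and from 116 (88.6 to 144) to 154 (120 to 188) at 24 h. Its values were above 0 h at each time with overlapping intervals, and the log2 ratios were 0.23 ± 0.21, 0.23 ± 0.19 and 0.41 ± 0.19. Sox2 (chromosome 3, plus strand, 34650405 to 34652461) went from 110 FPKM (86.4 to 133) to 119 (93.8 to 145) at 1 h, from 107 (85.8 to 129) to 140 (112 to 168) at 8 h and from 108 (85.7 to 129) to 139 (111 to 167) at 24 h. Its log2 ratios were 0.12 ± 0.21, 0.38 ± 0.19 and 0.37 ± 0.20, again with overlapping intervals. The second row named Sox2 held 2.07 FPKM (0 to 4.49) at 0 h in the 8 h table, from 186 estimated counts. In the 24 h table that row went from 2.08 FPKM (0 to 4.58) to 2.75 (0 to 6.34), a log2 ratio of 0.39 ± 1.28. Sox2 sits inside Sox2ot, a noncoding gene of the same strand, and summing both rows left the log2 ratio at 24 h at 0.35.

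Mab21l1 showed the largest ratios of the 9 genes at 8 and 24 h. Both Mab21l genes have a single exon and lie within a large gene on the opposite strand: Mab21l1 (chromosome 3, plus strand, 55782510 to 55785001) within Nbea, and Mab21l2 (chromosome 3, minus strand, 86545581 to 86548629) within Lrba. Mab21l1 went from 55.3 FPKM (40.5 to 70.1) to 61.3 (45.3 to 77.4) at 1 h. It went from 56.0 (42.0 to 70.0) to 92.5 (71.8 to 113) at 8 h and from 56.2 (42.0 to 70.4) to 112 (87.3 to 137) at 24 h. The intervals overlapped at 1 h, were 1.82 FPKM apart at 8 h and 16.9 FPKM apart at 24 h. The log2 ratios were 0.15 ± 0.27, 0.72 ± 0.24 and 1.00 ± 0.24, or 1.65-fold at 8 h and 2.00-fold at 24 h. In estimated counts the 24 h ratio was called as well (4172 to 8325), while the 8 h ratio, 0.72, was not.

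Mab21l2 had the lowest level of the 9 genes and the lowest ratio at 1 h. It went from 29.6 FPKM (19.1 to 40.1) to 24.6 (14.9 to 34.2) at 1 h, from 29.98 (20.02 to 39.9) to 37.6 (26.9 to 48.4) at 8 h and from 30.1 (19.9 to 40.2) to 46.6 (34.4 to 58.8) at 24 h. The value was under 0 h at 1 h and over it at 8 and 24 h. The log2 ratios were -0.27 ± 0.38, 0.33 ± 0.32 and 0.63 ± 0.31. At 24 h the ratio passed 1.5-fold but the intervals overlapped (a gap of -5.82 FPKM), so Mab21l2 lies just outside the rule that Rax, with intervals 3.43 FPKM apart, lies just inside.

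The strandedness of counting is not given in the sources used here, so reads from a member and from a gene on the opposite strand may not be told apart. Annotated exons of Nbea cover 39.4% of the exon bases of Mab21l1, and those of Lrba cover 36.0% of the exon bases of Mab21l2. Nbea, which encodes a scaffold protein of membrane trafficking, had 10.1 FPKM (6.20 to 14.0) at 0 h and 10.3 (5.98 to 14.6) at 24 h, a log2 ratio of 0.03 ± 0.35. Lrba, a relative of Nbea, had 18.6 FPKM (13.5 to 23.7) untreated and 12.7 (8.43 to 16.9) after 24 h. Its log2 ratio was -0.55 ± 0.27, with overlapping intervals. The part of these overlaps in the values of the members was not tested. Whether reads were shared between the relatives Mab21l1 and Mab21l2 was not tested either. Their coding sequences have 1077 bases each, of which 80.6% are identical, with a longest identical run of 26 bases. Among the 3 members with no other tested locus overlapping theirs at 24 h (Rax, Lhx2 and Otx2), the median log2 ratio was 0.66, and 2 were called higher, where 3.83% of all tested loci were. This subset was chosen after the data were seen.

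**Figure D3:**
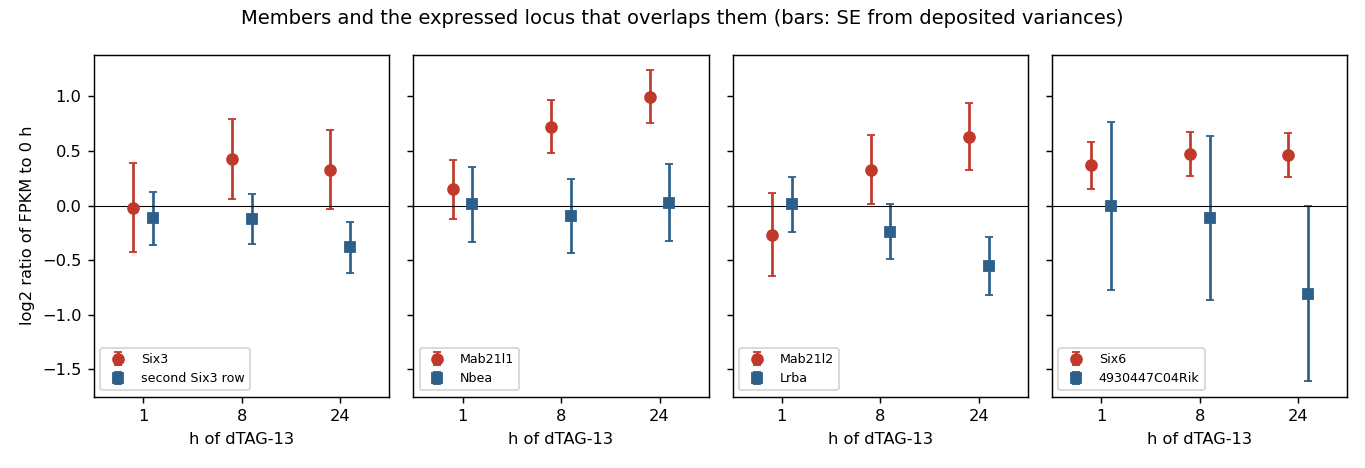
Log2 ratio of FPKM to 0 h, with SE bars from the deposited variances, for 4 members (red circles) and the expressed row that overlaps each (blue squares). At 24 h these 4 members lie between 0.33 and 1.00, and the rows drawn beside them between -0.81 and 0.03. Not drawn are the tested rows that overlap Sox2 (its second row, 0.39 ± 1.28 at 24 h) and Pax6 (Pax6os1, -0.39 ± 2.19).

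From 8 to 24 h the point values of the ratios rose for some members and changed little or fell for others. Set side by side, the log2 ratio at 24 h minus that at 8 h was 0.30 for Mab21l2, 0.27 for Mab21l1, 0.22 for Rax, and 0.18 for both Lhx2 and Otx2. It was 0.04 for Pax6, -0.01 for Six6 and Sox2, and -0.10 for Six3. These differences are smaller than or close to the SE of the single ratios and were not tested.

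Most of these genes have few coding exons, Pax6 being the exception. In a representative transcript, Sox2, Mab21l1 and Mab21l2 have 1 coding exon, Six3 and Six6 have 2, Rax and Otx2 have 3, Lhx2 has 5 and Pax6 has 11. The median over 11176 tested protein-coding genes was 9. In exon junctions per kilobase of coding sequence, 8 of the 9 lay between 0 (the 3 genes with a single exon) and 3.28 (Lhx2), against a median of 6.15 over those genes, while Pax6 had 7.65. At most 21.4% of those genes had as few coding junctions per kilobase as Lhx2 does. The last exon makes up all of the 3 single-exon transcripts, 81.6% of that of Six6, 76.9% of Otx2, 61.8% of Six3, 51.1% of Rax, 31.4% of Lhx2 and 28.0% of Pax6, against a median of 48.3%. Lhx2 and Pax6 thus lie below the median in this measure.

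Across the whole table, genes with few coding exons had higher ratios at 8 and 24 h than genes with many, and at 24 h the members lay between -0.01 and 0.65 from the median of their class. The 632, 646 and 648 tested genes with 1 coding exon had median log2 ratios of -0.002, 0.38 and 0.37 at 1, 8 and 24 h. The 4361, 4404 and 4408 genes with 11 or more had medians of -0.03, -0.04 and -0.05. At 24 h 20.5% of the genes with 1 coding exon were called higher, 13.3% of those with 2, 10.1% of those with 3, 3.98% of those with 5 and 0.862% of those with 11 or more. Against these medians, Sox2 differed from its class by 0.00 at 8 and 24 h, Six3 by 0.08 and -0.01, Six6 by 0.12 and 0.13, and Pax6 by 0.05 and 0.10. Otx2 was 0.07 and 0.21 above its class, and Mab21l2 was -0.06 and 0.26 from its own. The members farthest above their class were Lhx2 (0.49 and 0.65), Mab21l1 (0.34 and 0.63) and Rax (0.28 and 0.46). At 24 h 94.3% of genes with 5 coding exons had a lower ratio than Lhx2, 89.2% of those with 1 had a lower ratio than Mab21l1 and 85.5% of those with 3 a lower one than Rax. The differences of Lhx2 at 8 and 24 h, and of Rax and Mab21l1 at 24 h, are at least 2 times the SE of the ratio itself. These members were picked as the farthest above their class, and the SE does not measure the spread among genes of a class. Whether these differences exceed the spread between replicates could not be tested.

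**Figure D4:**
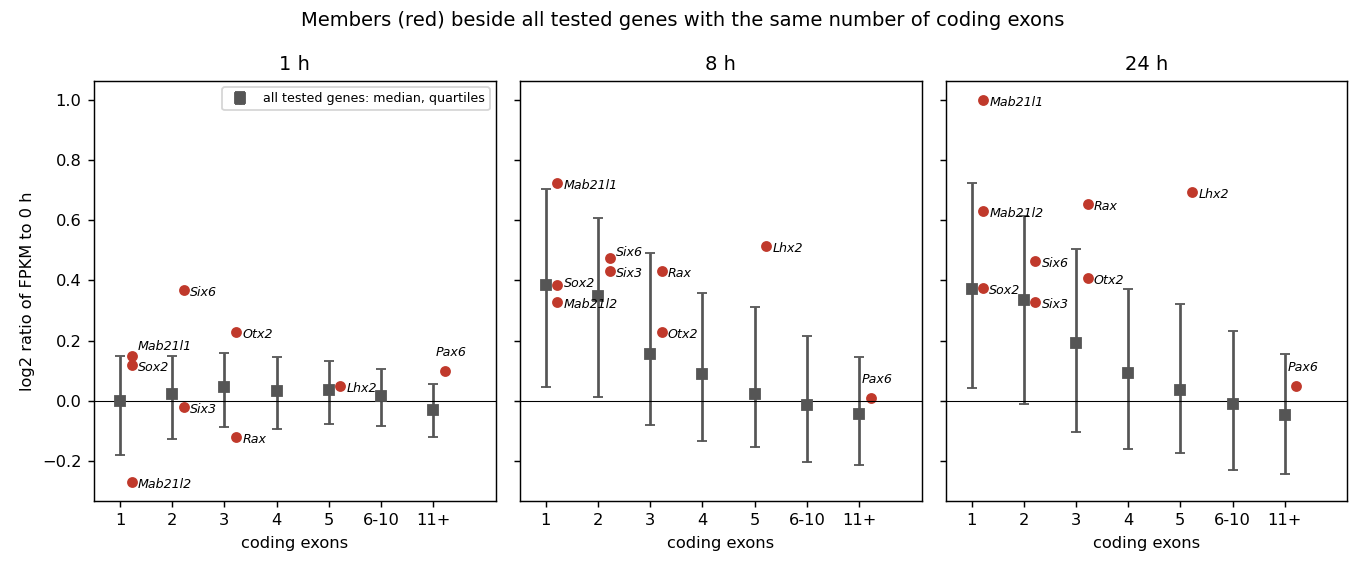
Log2 ratio of FPKM to 0 h by the number of coding exons: grey squares and bars are the median and quartiles of all tested genes in a class, red points the members. At 8 and 24 h the class medians fall from 0.38 and 0.37 at 1 coding exon to -0.04 and -0.05 at 11 or more, and Lhx2, at 5, lies farthest above its class.

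METTL3 methylates adenosines within a short consensus, of which GGACT is a common form, and this motif was searched for on the transcript strand only. All 9 representative transcripts hold it, as do 91.6% of those of the tested genes. Pax6 has 7 matches, Lhx2 has 4, Otx2 and Sox2 have 3, Six3 and Six6 have 2, and Rax, Mab21l1 and Mab21l2 have 1. Per kilobase, Pax6 (2.44) is the most dense and Mab21l2 (0.370) the least, against a median of 1.05 over the tested genes. The number of matches and the ratios showed no single order: Pax6, with the most matches, had the smallest ratios at 8 and 24 h, while Lhx2, with the next most, was called at 24 h, as were Rax and Mab21l1 with 1 match each. These numbers cover the whole transcript and leave out distance from exon junctions. In the last exon lie 2 of the 7 matches of Pax6, 1 of the 4 of Lhx2, 1 of 1 of Mab21l1 and 0 of 1 of Rax. For the other genes it is 3 of 3 in Sox2, 1 of 1 in Mab21l2, 1 of 2 in Six6, 1 of 3 in Otx2 and 0 of 2 in Six3. The matches nearest the stop codon are shown for the single-exon genes and for Lhx2, in GENCODE transcript sequence with the motif in capitals:
Sox2: catgtgagggctGGACTgcgaactggaga
Mab21l1: tcctcgagagtcGGACTgggacgaatctt
Mab21l2: cccgagggaaacGGACTgggacgaggctt
Lhx2: gtacagttttgtGGACTgagcgaggaaaa
The Sox2 site (chr3:34651369-34651397, plus strand) spans the stop codon, with the motif's A in the 3′ UTR 10 bases after the first base of the stop codon. In Mab21l1 (chr3:55783848-55783876, plus strand) and Mab21l2 (chr3:86546809-86546837, minus strand) the A lies at the same place of the coding sequence, at -209 counted from the first base of the stop codon. The Lhx2 site (chr2:38369361-38369389, plus strand) is in the 3′ UTR in exon 5, with the A 248 bases after the stop codon begins. A match is a description of the letters. Methylation was not measured in these files.

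Other genes of the eye and of neighbouring tissues were taken from 10 lists. Of 25 further optic vesicle and retinal progenitor regulators, 22 were tested at 24 h, with 2 called higher and 2 lower, a median log2 ratio of 0.21 and 15 above 0. Over all tested loci at 24 h, 3.83% were called higher and 1.65% lower, and 52.1% had a ratio above 0. The T-box genes Tbx2 and Tbx3, which act in the dorsal optic vesicle, rose at 24 h from 2.35 FPKM (1.75 to 2.96) to 5.18 (4.02 to 6.34) and from 2.83 (2.05 to 3.62) to 5.61 (4.23 to 6.99). The homeobox gene Hmx1 fell from 50.2 FPKM (39.7 to 60.8) to 24.5 (19.1 to 29.9), and the zinc finger gene Zic1 from 14.2 (10.98 to 17.4) to 5.67 (4.24 to 7.11). The 4 called genes of this list were thus split between both directions. At 1 h 0 of 20 tested genes of it and at 8 h 0 of 22 were called, with medians of -0.02 and 0.26. At these times 0.402% and 4.43% of all tested loci were called.

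Of 18 secreted factors, receptors and enzymes of the optic vesicle, 14 were tested. At 8 h 1 was called higher and 1 lower, and at 24 h 1 higher and 2 lower, with medians of 0.01 and -0.13. For scale, the 8 h rule picked out 3.49% of all tested loci as raised and 0.94% as reduced. By 24 h these shares had become 3.83% (raised) and 1.65% (reduced). Aldh1a3 and Aldh1a1 encode enzymes that make retinoic acid. Aldh1a3 fell at both 8 and 24 h: from 37.7 FPKM (30.4 to 45.1) to 22.3 (17.8 to 26.8), and from 37.9 (30.3 to 45.4) to 12.4 (9.498 to 15.4). At 24 h Aldh1a1 fell from 1.52 FPKM (0.950 to 2.08) to 0.292 (0.00039 to 0.585), or from 86.6 to 17.3 estimated counts. Ndp, which encodes the ligand norrin, was called higher at 8 h and at 24 h, where its level was 2.14 FPKM (1.48 to 2.80) against 0.796 (0.441 to 1.15).

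Genes of retinal neurogenesis were barely expressed: 16 of 20 had a row of their own, 3 were tested, and 14 were under 1 FPKM at 0 h. Crx, a homeobox gene of photoreceptor precursors, was called higher at both later times, with 2.89 FPKM (2.16 to 3.62) at 8 h against 1.34 (0.908 to 1.77), and 3.49 (2.56 to 4.41) at 24 h against 1.34 (0.910 to 1.78). At 1 h its value was 0.709, below the 1.32 at 0 h, with a log2 ratio of -0.81 and no call. Of the other tested genes, Elavl4, a neuronal RNA-binding gene, had 1.49 FPKM at 0 h and 1.22 at 24 h. Pou4f1, a homeobox gene of retinal ganglion cells named after its values were seen, had log2 ratios of 1.11 at 8 h and 0.85 at 24 h and was not called. In estimated counts its log2 ratios were smaller, 0.79 at 8 h and 0.19 at 24 h (from 114 to 130). The medians over the 3 genes at 8 and 24 h were 1.05 and 0.85, the latter being the value of Pou4f1. Of all tested loci, 3.49% and 3.83% were called higher at these times.

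Markers of other cell types could move with the members, because the organoids were sequenced in bulk, where more cells of a type and more RNA per cell cannot be told apart. For comparison with the counts below, 3.83% of all tested loci were called higher at 24 h and 1.65% lower. Of 12 pigment epithelium genes 6 were tested and none was called. Their summed level was 110.3 FPKM at 0 h and 140.1 at 24 h, with Trpm1 at 45.2 and 38.1 FPKM and Pmel at 28.9 (13.3 to 44.5) and 60.3 (35.6 to 85.0). Tyr and Rpe65, named after their values were seen, were listed at 0 at 0 h, while Mitf had 19.2 FPKM and Dct 11.6 FPKM. Of 12 lens and surface ectoderm genes 7 were tested, and Cryab (log2 ratio -1.78) and Krt8 (-0.76) were called lower at 24 h, as the sum went from 79.9 to 53.9 FPKM. All 9 pluripotency genes were tested, and Dppa5a (-0.88) and Tdgf1 (-1.05) were called lower at 24 h, with the sum going from 319.9 to 209.9 FPKM. Dppa5a made up most of that sum and of its difference, going from 200.4 to 109.0 FPKM, and the other 7 were not called, with log2 ratios from -0.35 (Tfcp2l1) to 0.33 (Klf4), these examples being chosen after their values were seen. Of 11 telencephalon and hypothalamus genes 5 were tested, and Wnt8b (-0.83) was called lower at 24 h, while Emx2, at 20.8 and 21.6 FPKM, was not called, and the sum was 32.4 and 32.3 FPKM. Caudal neural and neural crest genes (sum 4.41 and 4.05 FPKM, led by Pax3 at 1.49 and Irx3 at 1.41) were near the limit of testing, and none was called. Mesoderm and endoderm genes (sum 5.71 and 7.81 FPKM, led by Gata4 at 1.51 and Eomes at 1.09) were also near that limit. At 24 h none of the 5 tested was called, but all 5 ratios were above 0, with a median of 0.51 and a range from 0.001 (Eomes) to 0.77 (Sox17). The share of these changes in the rise of Rax, Lhx2 and Mab21l1 was not tested.

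The genes whose pattern is most like each member were sought among 6712 genes with at least 10 FPKM at 0 h, by the Euclidean distance between the log2 ratios at 1, 8 and 24 h. Since these ratios share the 0 h libraries, the distances describe these libraries only. Svbp (0.19, 0.66 and 1.02 at 1, 8 and 24 h) and Krcc1 lay nearest to Mab21l1, at distances of 0.08 and 0.09. Nsdhl and Myo5a lay nearest to Lhx2, Zfp334 and Plpp2 to Rax, and Bnip1 and Rhoq to Mab21l2. Dtx4 and Elf2 were nearest to Six3, Lrr1 and 1810013L24Rik to Six6, 1110008P14Rik and Srp19 to Otx2, 1110038F14Rik and Sp3 to Sox2, and Trim44 and Ube2w to Pax6. The number of genes within a distance of 0.2 was 22 for Mab21l1 and Mab21l2, 40 for Six6, 112 for Rax and 139 for Lhx2. It was 175 for Otx2, 430 for Sox2, 466 for Six3 and 1339 for Pax6. By these point values the pattern of Pax6 was a common one and those of the Mab21l genes were rarer. The SE of a single ratio of a member was 0.19 to 0.41, close to or above 0.2. The nearest genes and these counts are therefore not resolved. Among the members themselves the closest pair was Six3 and Sox2, at 0.15, and the gene nearest to Pax6 was Otx2, at 0.44.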

How the data were processed

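Polyadenylated RNA of 8 samples in 4 groups was sequenced, per the labels. The authors deposited FPKM with bounds, and estimated counts with variances, made with Cufflinks 2.2.1 and Cuffdiff on mm10, per the submitters' processing notes. Replicates were combined, so no mean ± SD, count model or p-value was possible. The aligner, strandedness and interval level are not given in the sources used here. Interval half-widths had a median of 2.16 to 2.17 deposited standard deviations. Loci without a name (4822, 4904 and 4904) held 1.03% to 1.11% of the estimated counts, and 10, 7 and 9 loci with a status other than OK were left out.

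The log2 ratio was taken of FPKM + 0.1, which understates changes of low genes. Its SE combines the relative variances of both estimated counts, taken as independent. Gene positions and transcripts came from GENCODE M21 (GRCm38), with representative transcripts by APPRIS rank and then coding length. Python 3.11.15 and pandas 2.3.3 were used. The members and lists were chosen with earlier results of these data known. Genes named are the members, rows overlapping them, called genes of the lists (or, with fewer than 2 called, the 2 with the highest FPKM at 0 h), the 2 nearest patterns per member, and Mettl3. A few other genes of the lists were named after their values were seen.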

Additional observations from a re-analysis of the deposited data

How the results depend on the processing

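No paired analysis was possible because each deposited column combines both replicates, and for the same reason no replicate could be left out. The median log2 ratio over the members moved most at 24 h, from 0.46 to 0.66 among the members without an overlapping tested locus, and the order at 0 h was the same in all 3 tables. The number of members called changed from 1 to 0 at 8 h with estimated counts in place of FPKM and with a 2-fold threshold. It was also 0 among the members that no other tested locus overlaps (chosen after seeing the data). That subset leaves out Mab21l1, so the call of Mab21l1 itself was not changed by it. At 24 h the number called changed from 3 to 0 with the 2-fold threshold. It was 2 with estimated counts, where Rax was lost, and 4 without the intervals, where Mab21l2 was added. Of 249 log2 ratios of single members under an alternative, 1 changed sign: Six3 at 24 h with the counts of both its rows summed (-0.18, chosen after seeing the data). This count says little about stability, because many of the 249 could not change sign. Settings that alter only the filter, the fold threshold or the use of intervals leave a ratio as it is. Another value added to FPKM cannot change its sign. Over all tested loci, the 55 calls at 1 h became 30 with a filter of 5 FPKM, 95 with no filter, 27 in estimated counts and 707 without the intervals. The 612 calls at 8 h became 217 with a 2-fold threshold and 1896 without the intervals, and the 762 at 24 h became 297 and 2371. At 1 h the estimated counts gave 2 loci higher, against 16 by FPKM.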
